A study of Rattus norvegicus with 13 samples.

Results

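A group of 8 genes for extracellular serine proteases and their serpin inhibitors was followed in rat frontal cortex: Klk8, Klk6, Hpn, Ctrl, Plat, Plau, Serpine2 and Serpini1. These 8 genes were chosen by name from earlier results of the same arrays, and their trauma-minus-sham values and background calls entered that choice. Their differences are therefore given as a description, with no test. Of the 8 genes, 7 were well above background throughout 1 or more groups and so belonged to the 17245 genes tested on the arrays. Plau did not.

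RNA came from male Sprague–Dawley rats killed 1 month after trauma or sham surgery, and each of 13 samples had its own one-colour array. The groups were rotational trauma (3 arrays), its rotational sham (3 arrays), lateral fluid percussion trauma (3 arrays) and its percussion sham (4 arrays). In rotational trauma the head is accelerated, and in fluid percussion a fluid pulse strikes the brain to one side. All sham rats had anaesthesia and surgery but no trauma, and the age of the rats was not given in the sources used here. All values are from bulk cortex, where fewer cells of a type and less RNA per cell cannot be told apart.

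Serine proteases cut proteins with a serine in their active site, and most are made as inactive precursors. Serpins are inhibitors that trap such a protease after it has begun to cut them. In brain, kallikreins and plasminogen activators act outside cells on adhesion molecules, matrix and myelin proteins, and plasminogen activators turn plasminogen into plasmin. Hepsin (Hpn) is a protease anchored in the membrane and best known from liver, and Ctrl encodes a chymotrypsin-like protease best known from pancreas.

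The probes of Klk8, Klk6, Hpn and Ctrl are shown, because each value is the signal of 1 short sequence. Positions on rn4 were taken from the array files. The Klk8 probe lies at chr1:94233905-94233964 on the plus strand and the Klk6 probe at chr1:94261274-94261333 on the plus strand, 27.3 kb apart. Capitals mark a match to CCNGGNGTNTACAC, which was searched on both strands and is held by 7 of 30367 probes (0.0231%). The Hpn probe used for its level lies on the minus strand at chr1:86145919-86146142, a span of 224 bases for 60 probe bases, and a second Hpn probe lies upstream of it at chr1:86146467-86146526. The Ctrl probe lies on the minus strand at chr19:35774293-35774352. No rn4 gene annotation was used here, so exons and untranslated regions were not assigned.
Klk8: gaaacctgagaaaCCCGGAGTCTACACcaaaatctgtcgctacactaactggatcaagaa
Klk6: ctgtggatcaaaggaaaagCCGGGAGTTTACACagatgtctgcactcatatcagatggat
Hpn, downstream probe: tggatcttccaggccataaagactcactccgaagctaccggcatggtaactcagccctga
Hpn, upstream probe: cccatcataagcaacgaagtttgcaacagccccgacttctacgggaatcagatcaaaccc
Ctrl: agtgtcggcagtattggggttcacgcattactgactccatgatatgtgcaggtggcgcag
The Klk8 and Klk6 probes shared no exact run longer than 8 bases. The longest run that either shared with the probe of another gene was 13 bases for Klk8 and 15 bases for Klk6.

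Levels below are log2 processed signals minus the 75th percentile of the same array, so a level of 0 equals that percentile. Levels of different probes are not compared. Replicates of a group correlated between 0.988 and 0.997 over genes, and most spots were well above background. The share of such spots was 67.0% to 72.5% in rotational trauma, against 73.1% to 74.1% in rotational sham. It was 72.7% to 73.8% in percussion trauma, against 67.6% to 69.4% in percussion sham. All rotational arrays lay on 1 slide and all percussion arrays on the other, so an effect of the slide and of the model cannot be told apart. Slide column 1 held rotational sham and percussion trauma, and slide column 2 held rotational trauma and percussion sham, so within each model column and group cannot be told apart either. The share of spots above background was lower on every column 2 array than on any column 1 array. Of 8 markers of cortical excitatory neurons, 7 were tested and all 7 were above background on all 13 arrays. Over all genes the median difference was -0.03 in rotational trauma and 0.03 in percussion trauma. Across all 17245 genes, 0.0116% passed an adjusted p of 0.05 in rotational trauma (2 genes, limma), with 1206 at an unadjusted p under 0.05. In percussion trauma 0.0% passed (0 genes), with 1992 at an unadjusted p under 0.05. None of the 7 members that were tested was among the genes that passed. These calls rest on the contrasts that chose the members, so nothing is read from them.

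Klk8 encodes neuropsin, a secreted protease known from forebrain neurons, where it cuts adhesion molecules at synapses. Its level was -4.78, -4.64 and -4.96 on the rotational trauma arrays, against -3.65, -2.92 and -3.32 on the rotational sham arrays. All 3 trauma arrays lay below all 3 sham arrays, with a gap of 1.00 between the groups. The difference was -1.50 (SE 0.26), which is 2.83-fold lower in trauma. In percussion it was -4.89, -4.85 and -4.51 on the trauma arrays, against -5.10, -4.55, -4.33 and -3.95 on the sham arrays. The percussion groups overlapped, with a difference of -0.26 (SE 0.24). Every array was above background, and both spots gave the same direction: -1.53 and -1.47 in rotational trauma, and -0.32 and -0.21 in percussion trauma. The rotational sham arrays were the highest of the 4 groups, and the percussion sham mean lay 1.19 below the rotational sham mean with no overlap. The other 3 groups overlapped their neighbours in order of level. Of 9 striatal markers, 0 were higher in rotational trauma (median -0.47) and 2 in percussion trauma (median -0.05), and none passed the test. Their summed linear signal, in units of the 75th percentile, was 11 to 17.8 in rotational trauma, against 12 to 28.9 in rotational sham. Of 7 tested cortical excitatory neuron markers, 1 was higher in rotational trauma (median -0.08) and 4 in percussion trauma (median 0.04). Of 6 tested hippocampal markers, 1 was higher in rotational trauma (median -0.12) and 5 in percussion trauma (median 0.24). None of these passed the test either. The part of any of these markers in the Klk8 values was not tested.

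Klk6 encodes neurosin, a kallikrein known from oligodendrocytes that cuts myelin basic protein. It was measured by 10 spots, of which at least 8 were kept on each array, with a median SD between spots of 0.0802. Its level was -0.33, -1.10 and -0.59 on the rotational trauma arrays, against -0.91, -1.82 and -1.04 on the rotational sham arrays. The groups overlapped, since the lowest trauma array lay below 2 sham arrays, and the difference was 0.58 (SE 0.25). Without rotational sham replicate 2, the lowest array, it was 0.30. At the 8 spots kept on all 6 rotational arrays it ranged between 0.53 and 0.65, so the spots varied less than the rats. In percussion the level was -1.09, -0.55 and -0.59 on the trauma arrays, against -0.88, -0.67, -0.84 and -0.92 on the sham arrays. Those groups overlapped too, with a difference of 0.09 (SE 0.23). Klk8 and Klk6 therefore differed in opposite directions in rotational trauma, although only the Klk8 groups were separate. Of 10 oligodendrocyte markers, 8 were higher in rotational trauma (median 0.34) and 4 in percussion trauma (median -0.04), and none passed the test. Their summed signal on the same scale was 114.7 to 140.7 in rotational trauma, against 107.4 to 132.2 in rotational sham. It was 116.8 to 123.3 in percussion trauma, against 105.8 to 124.9 in percussion sham. The part of these markers in the Klk6 values was not tested.

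**Figure D1:**
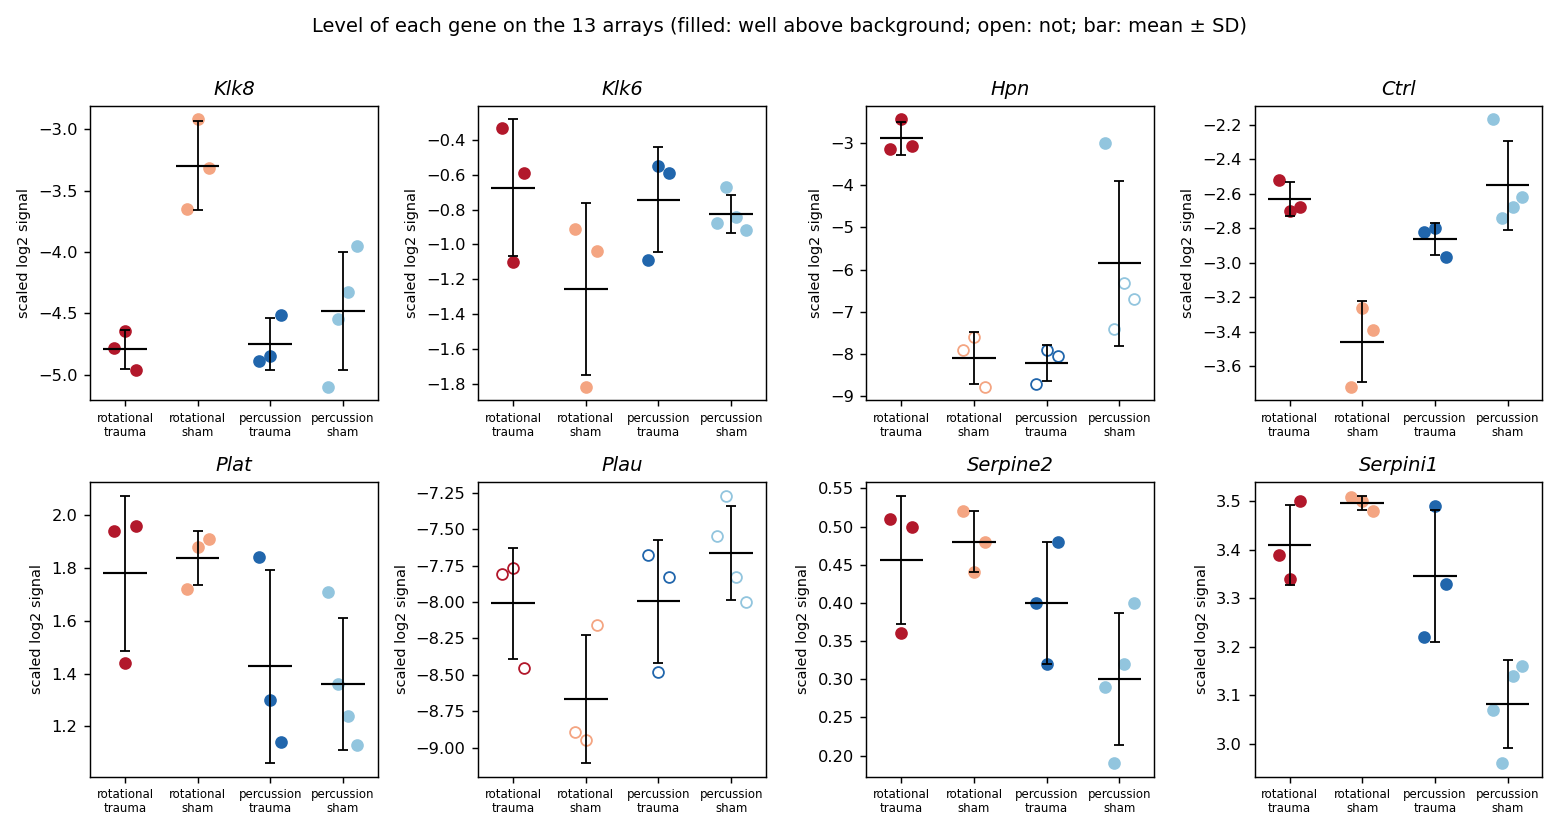
Scaled log2 signal (vertical axes, one scale per gene) of the 8 genes on 13 arrays in 4 groups, with the mean and SD of each group; open points are not well above background. Klk8 was lower in all 3 rotational trauma arrays than in its sham arrays, Hpn was above background on 4 arrays, and Plau on none.

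Hpn gave a level of -3.14, -2.44 and -3.08 on the rotational trauma arrays, all 3 above background. On the rotational sham arrays it was -7.91, -7.60 and -8.78, with 0 of 3 above background. The rotational trauma mean lay 3.79 above the mean of the lowest signals that counted as above background on the rotational sham arrays. No fold is given, since the fitted difference of 5.21 fell to 2.07 and 2.98 under other ways of processing given below. In percussion the Hpn level was -8.71, -7.90 and -8.04 on the trauma arrays, with 0 of 3 above background. On the percussion sham arrays it was -2.99, -7.40, -6.32 and -6.70, with 1 of 4 above background. No fold is given for percussion, since 3 of the 4 sham readings were below background. Without that array the fitted percussion difference was -1.41, against -2.36 with it, and no array of either percussion group was above background.

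The Hpn level rests on 1 spot per array. The upstream probe, with 2 spots, was not above background on any of the 13 arrays. It read -7.97 to -7.42 on the 7 arrays of slide column 2 and -8.83 to -8.17 on the 6 arrays of slide column 1. The downstream probe likewise read higher on every column 2 array (-7.40 to -2.44) than on any column 1 array (-8.78 to -7.60), and was above background on 4 of 7 and 0 of 6. The probes therefore disagree on whether Hpn RNA was measurable in rotational trauma. Of 8 hepatocyte markers, Apoa1, Fgb and Cps1 were not above background. The 5 others, Alb, Ttr, Tf, Serpina1 and Ahsg, summed to 30.1 to 50.1 in rotational trauma, against 24.1 to 37.5 in rotational sham. They summed to 29.4 to 35.1 in percussion trauma, against 26.7 to 32.8 in percussion sham. Ttr, which is among them, is also in the choroid plexus list used below. The tested markers of that whole list summed to only 0.472 to 1.14 in rotational trauma. The larger sum was not split by gene or cell type, and is not read as one of hepatocytes. The lowest signal that counted as above background was -5.59, -5.70 and -6.49 on the rotational trauma arrays, against -6.77 to -6.50 in rotational sham. It was -6.72 to -6.32 in percussion trauma, against -5.91 to -5.67 in percussion sham. The part of this limit, of the slide column or of such cells in the Hpn values was not tested.

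Ctrl was above background on all arrays. Its level was -2.52, -2.70 and -2.68 on the rotational trauma arrays, against -3.72, -3.26 and -3.39 on the rotational sham arrays. All 3 trauma arrays lay above all 3 sham arrays, with a gap of 0.56 and a difference of 0.82 (SE 0.15), 1.77-fold higher in trauma. In percussion it was -2.82, -2.80 and -2.97 on the trauma arrays, against -2.17, -2.74, -2.68 and -2.62 on the sham arrays. Here all 3 trauma arrays lay below all 4 sham arrays by a gap of only 0.05, and the difference was -0.31 (SE 0.14). Without percussion sham replicate 1, the highest array, it was -0.18. Both spots gave each direction. As for Hpn, every column 2 array (-2.74 to -2.17) was higher than every column 1 array (-3.72 to -2.80). This pattern was shown by 0.029% of all genes (5 genes), Hpn and Ctrl among them. It is made of the contrasts that chose the members, so nothing is read from the share. Of 7 acinar markers of pancreas, Cpa1, Cpb1, Cela1, Clps and Amy2a3 were not above background. The remaining markers, Pnlip and Ctrb1, summed to 0.277 to 0.296 in rotational trauma, against 0.361 to 0.404 in rotational sham. They summed to 0.218 to 0.405 in percussion trauma, against 0.179 to 0.549 in percussion sham.

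**Figure D2:**
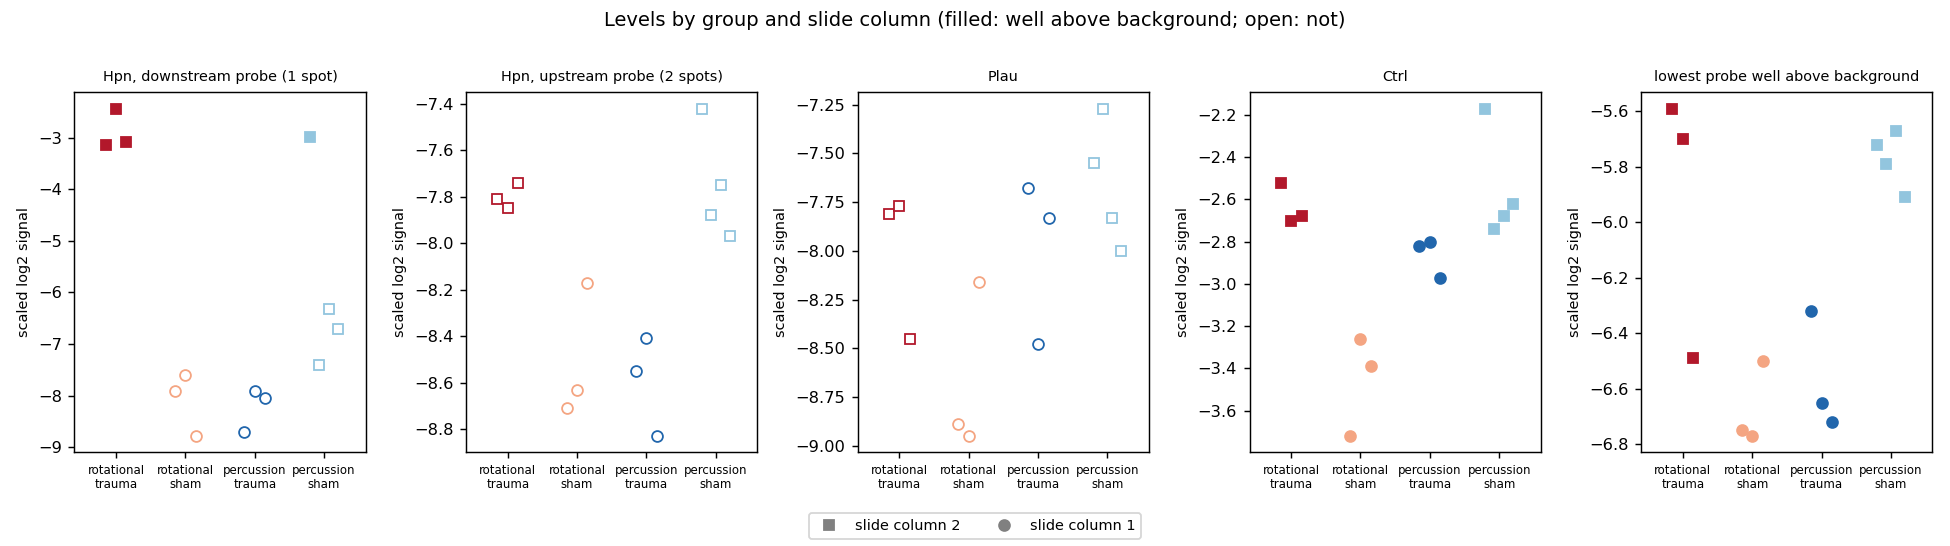
Scaled log2 signal (vertical axes) by group for both Hpn probes, Plau, Ctrl and the dimmest probe still well above background on each array; squares are arrays of slide column 2, circles of column 1. For both Hpn probes and for Ctrl every square lies above every circle, while for Plau they mix.

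Plat and Plau encode the tissue-type and urokinase-type plasminogen activators. The Plat level was 1.94, 1.44 and 1.96 on the rotational trauma arrays, against 1.72, 1.88 and 1.91 on the rotational sham arrays. It was 1.84, 1.30 and 1.14 on the percussion trauma arrays, against 1.71, 1.36, 1.24 and 1.13 on the percussion sham arrays. The groups overlapped in both models, with differences of -0.05 (SE 0.20) and 0.07 (SE 0.19), and the spread between rats of 1 group was larger than either. Plau was not above background on any of 13 arrays, and no fold is given for it.

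Serpine2 encodes protease nexin, an inhibitor of thrombin and plasminogen activators, and Serpini1 encodes neuroserpin, a neuronal inhibitor of tissue plasminogen activator. The Serpine2 level was 0.51, 0.36 and 0.50 on the rotational trauma arrays, against 0.52, 0.44 and 0.48 on the rotational sham arrays. It was 0.40, 0.32 and 0.48 on the percussion trauma arrays, against 0.29, 0.19, 0.32 and 0.40 on the percussion sham arrays. The groups overlapped in both models, with differences of -0.02 (SE 0.07) and 0.10 (SE 0.07). The Serpini1 level was 3.39, 3.34 and 3.50 on the rotational trauma arrays, against 3.51, 3.50 and 3.48 on the rotational sham arrays. Those groups overlapped, with a difference of -0.09 (SE 0.08). In percussion it was 3.22, 3.49 and 3.33 on the trauma arrays, against 3.07, 2.96, 3.14 and 3.16 on the sham arrays. All 3 percussion trauma arrays lay above all 4 sham arrays, with a gap of 0.07 and a difference of 0.26 (SE 0.08). A second Serpini1 probe gave 0.04 for the same comparison, with overlapping groups, so the probes disagree in size.

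**Figure D3:**
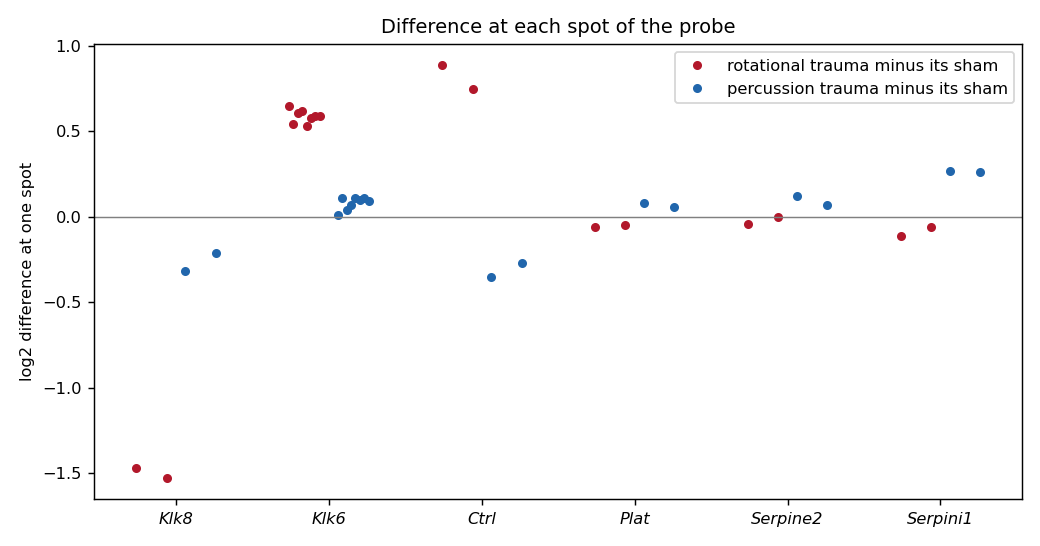
Difference in log2 level, trauma minus its sham (vertical axis), at each spot kept on all arrays of both groups, for 6 genes above background with more than 1 spot. The spots of a gene shown lie close together: Klk6 between 0.53 and 0.65 in rotational trauma and between 0.01 and 0.11 in percussion trauma. Plau and the upstream Hpn probe, below background on all arrays, are left out. The Plau spots lay further apart, at 0.39 and 0.92 in rotational trauma and -0.62 and -0.05 in percussion trauma.

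Counted over the members, 2 of 7 lay with all rotational trauma arrays above all sham arrays (Hpn and Ctrl), and 1 with all below (Klk8). Over all genes these shares were 4.53% and 11.2%. In percussion trauma 1 of 7 lay above (Serpini1) and 2 of 7 below (Hpn and Ctrl), where the shares over all genes were 6.94% and 3.06%. The rule used these contrasts, so nothing is read from the counts. Hpn, Ctrl, Plat, Serpine2 and Serpini1 took opposite signs in the 2 models. The groups of Plat and Serpine2 overlapped in both models, and those of Serpini1 in rotational trauma. Opposite signs cannot be told apart from an effect of the slide column, since column 2 held rotational trauma and percussion sham. Klk8 and Klk6 had the same sign in both, with overlapping groups in percussion, and the Klk6 percussion value of 0.09 changed sign under 2 alternatives.

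**Figure D4:**
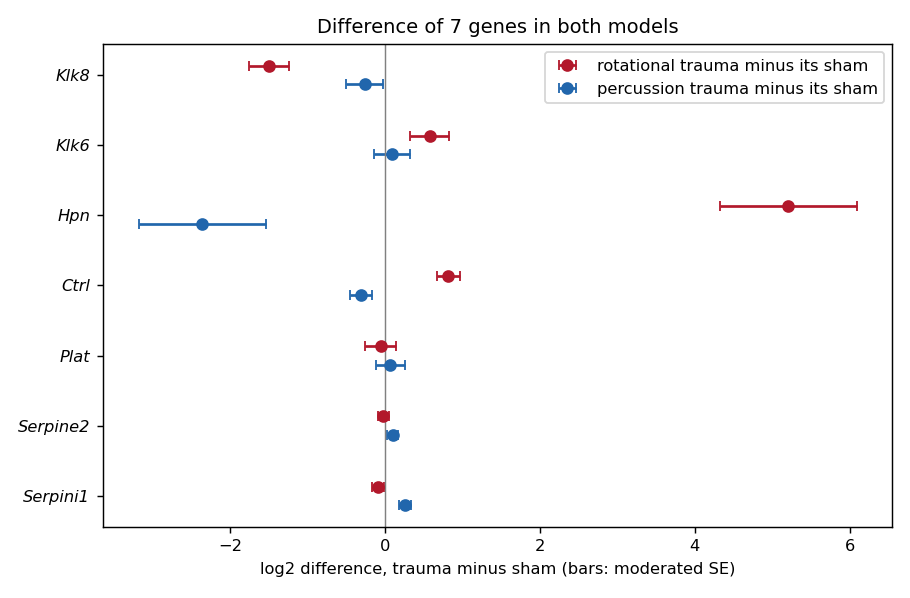
Log2 difference, trauma minus its sham (horizontal axis), with moderated SE bars for 7 genes in both models. Klk8 stands at -1.50 in rotational trauma; the Hpn values include arrays below background and are no measure of fold.

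The sham groups themselves differed between the models. Percussion sham minus rotational sham was -1.19 for Klk8, 0.90 for Ctrl and -0.41 for Serpini1, and these 3 of 7 members were called at an adjusted p of 0.05 (limma). Of all genes, 24.9% were called in the same comparison. The sham arrays enter the contrasts that chose the members, and the slide cannot be told apart from the model, so these values are a description. For Klk8 the rotational difference thus stood against sham arrays that were higher than the percussion sham arrays.

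Genes whose values ran most like a member's were sought over 11139 genes above background on all 13 arrays, after subtracting the mean of each model. All pairs share the same arrays and scaling. For Klk8 the genes of highest Pearson r were Nat14 (0.898) and Scn3a (0.889), and for Klk6 they were Nkx6-2 (0.947) and Fa2h (0.945). For Ctrl they were Serinc2 (0.916) and Slc15a2 (0.827), and for Plat C1qtnf6 (0.912) and Nup93 (0.906). For Serpine2 they were Tril (0.891) and Suclg2 (0.836), and for Serpini1 Mfn2 (0.917) and Tubb5 (0.902). Only model means were subtracted, so these values also hold the trauma-minus-sham differences that chose the members.

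Around these members, 9 lists of related proteases, inhibitors, receptors and substrates held 212 genes, of which 112 were tested. None passed an adjusted p of 0.05 in limma in rotational trauma (smallest adjusted p 0.426), in percussion trauma (0.2) or in the difference between the models (0.261). At an unadjusted p under 0.05, 11 list genes were higher and 6 lower in rotational trauma (9.82% and 5.36%), against 2.7% and 4.29% of all genes. In percussion trauma 17 were higher and 2 lower (15.2% and 1.79%), against 8.69% and 2.86% of all genes. In the difference between the models 3 were higher and 7 lower, where 9.24% of all genes reached that p in either direction and 0.0% passed the adjusted p (0 genes). The list genes' median difference was -0.03 in rotational trauma and 0.08 in percussion trauma. The lists were drawn up with earlier results of these data known, so nothing is read from these shares.

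Of the other 19 kallikreins, 16 were on the array and none was tested, because none was above background throughout a group. In the plasminogen activation list (15 tested) Vtn, which encodes vitronectin, was 0.89 higher in rotational trauma (SE 0.23, adjusted p 0.447). Its level was 1.01, 0.28 and 0.42 on the trauma arrays, against -0.04, -0.60 and -0.32 on the sham arrays, without overlap. Anxa2, which encodes an annexin that binds plasminogen at the cell surface, was 0.95 higher in percussion trauma (SE 0.27, adjusted p 0.237). In the other direction Lrp1, a receptor that clears protease and serpin complexes, gave -0.19 in rotational trauma, and Plgrkt, a plasminogen receptor, gave -0.16 in percussion trauma (-0.05 without trauma replicate 2 and -0.29 without trauma replicate 3). Both of these overlapped their sham groups.

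Among 13 tested serpins, Serping1, the inhibitor of complement C1 proteases, gave 0.74 in rotational trauma (SE 0.24, adjusted p 0.55) and 1.02 in percussion trauma (SE 0.22, adjusted p 0.202). Its groups did not overlap in either model. Serpina11 gave -0.35 in rotational trauma, or -0.19 without trauma replicate 2. Serpina4 gave -0.11 in percussion trauma, and between -0.23 and 0.06 with 1 array left out. The median serpin difference was -0.05 in rotational trauma and 0.36 in percussion trauma. Of 11 meningeal markers, 10 were tested and 10 of 10 were higher in both models, with medians of 1.14 and 1.33, and none passed the test. Their summed signal was 84.2 to 130.9 in rotational trauma, against 37.2 to 73.0 in rotational sham. It was 87.4 to 160.9 in percussion trauma, against 41.1 to 67.4 in percussion sham. Of 7 choroid plexus and ependyma markers, 4 were tested and 4 of 4 were higher in both models, with medians of 1.04 and 1.29. They summed to 0.472 to 1.14 in rotational trauma, against 0.217 to 0.877 in rotational sham. They summed to 0.51 to 1.39 in percussion trauma, against 0.224 to 0.487 in percussion sham. Of 8 endothelial markers, 4 were higher in rotational trauma (median 0.01) and 8 in percussion trauma (median 0.19). They summed to 5.99 to 8.29 in rotational trauma, against 6.57 to 7.22 in rotational sham. They summed to 6.32 to 7.50 in percussion trauma, against 5.48 to 6.19 in percussion sham. None of these markers passed the test. The part of meningeal, choroid plexus or endothelial tissue in the Serping1, Vtn, Anxa2, Fn1 and Timp1 values was not tested.

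Among 9 tested transmembrane proteases and hepsin partners, Tmprss9 gave -0.83 in rotational trauma (SE 0.22, adjusted p 0.448). Tmprss5 was above background on only 1 of 3 trauma and 1 of 3 sham arrays in that model, and its groups overlapped. In percussion trauma Spint2, an inhibitor of hepsin, gave 0.24 (SE 0.11, adjusted p 0.414) and Prss8 gave -0.67 with overlapping groups, or -0.24 without percussion sham replicate 1. Of 4 tested pancreatic type proteases and enzymes, Ctrb1, which encodes chymotrypsinogen B, gave -0.72 in rotational trauma (SE 0.44, adjusted p 0.823), opposite in sign to Ctrl, and Pnlip gave 0.20, or 0.13 without sham replicate 1. In percussion trauma Ctrc gave 0.26 with overlapping groups, or 0.15 without trauma replicate 2.

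In the thrombin and receptor list (10 tested) F13a1, which encodes a subunit of the clot-linking factor XIII, gave 0.71 in rotational trauma (adjusted p 0.683) with overlapping groups. In percussion trauma it was above background on 2 of 3 trauma arrays and 0 of 4 sham arrays, and no fold is given. Its level there was -5.18, -5.79 and -6.33 on the trauma arrays, against -6.69, -6.57, -6.93 and -7.17 on the sham arrays. F2rl1, a protease-activated receptor, was above background on 0 of 3 rotational trauma arrays and 3 of 3 rotational sham arrays. Its level was -6.17, -6.43 and -6.01 on the trauma arrays, against -5.99, -5.90 and -5.64 on the sham arrays. The lowest signal that counted as above background was itself -5.59, -5.70 and -6.49 on those trauma arrays, against -6.77 to -6.50 in rotational sham. The calls are therefore no measure of lost expression. F8 gave -0.30 in percussion trauma, or -0.11 without sham replicate 1 and -0.45 without sham replicate 2. Among 22 tested substrates, Mag, a myelin protein, gave 0.42 in rotational trauma (SE 0.16, adjusted p 0.602, and 0.22 without sham replicate 2) and -0.22 in percussion trauma. Pdgfc, whose product is activated by tissue plasminogen activator, was above background on 1 of 3 rotational trauma arrays and 3 of 3 rotational sham arrays, and no fold is given. Its level was -5.67, -5.46 and -5.36 on the trauma arrays, against -4.95, -5.24 and -5.02 on the sham arrays, and the same limit applies. Fn1, which encodes fibronectin, gave 0.83 in percussion trauma (SE 0.18, adjusted p 0.2).

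Among 22 other serine proteases of brain, Prss12, which encodes neurotrypsin, gave 0.76 in rotational trauma (SE 0.19, adjusted p 0.426). Its level was -0.01, -0.33 and 0.26 on the trauma arrays, against -0.85, -0.89 and -0.61 on the sham arrays, and the groups did not overlap. Dpp10 gave -0.33 in rotational trauma, or -0.15 without trauma replicate 3, while Prep gave 0.16 and Tpp2 -0.19 in percussion trauma. Among 17 protease inhibitors and partners, Timp1, a metalloprotease inhibitor, gave 0.83 in rotational trauma (adjusted p 0.592) and 0.84 in percussion trauma (adjusted p 0.314), or 0.51 there without trauma replicate 1. Slpi was above background on 0 of 3 rotational trauma arrays and 3 of 3 rotational sham arrays. Its level was -5.99, -6.60 and -8.66 on the trauma arrays, against -5.86, -5.51 and -5.60 on the sham arrays, where the lowest signal counted as above background also differed. Timp4 gave -0.32 in percussion trauma.

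**Figure D5:**
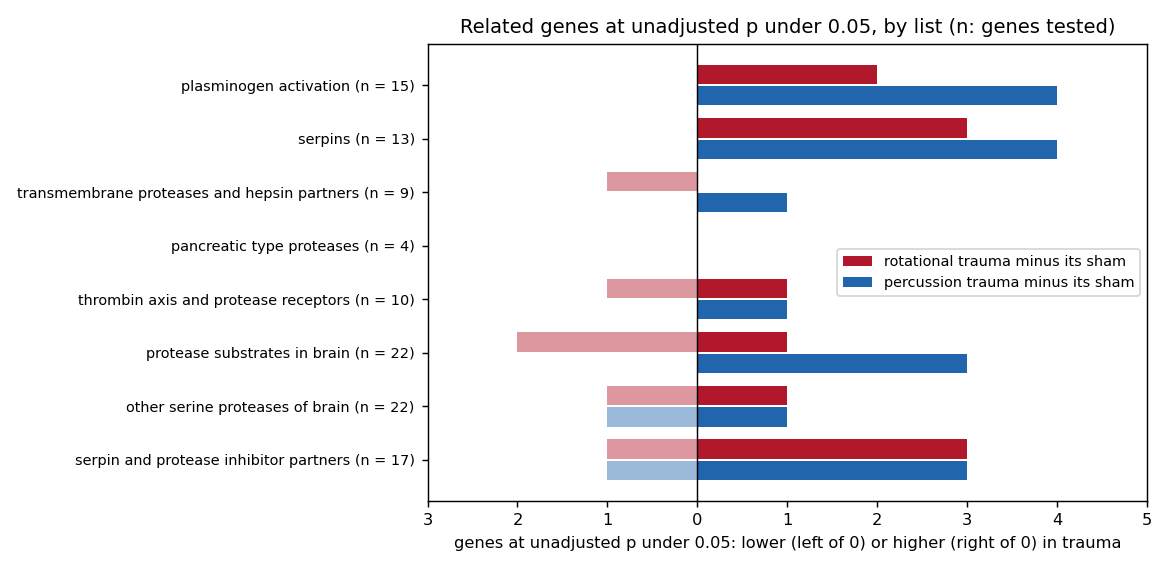
Number of genes per list at an unadjusted p under 0.05 (horizontal axis; paler bars left of 0 are lower in trauma, bars right of 0 higher) for 8 lists with tested genes. Plasminogen activation (15 tested) and serpins (13 tested), the lists with the most genes higher in percussion trauma, each show 4 higher and 0 lower. Of all genes, 8.69% were higher and 2.86% lower at that p. None of the list genes passed the adjusted p, and nothing is read from these counts.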

How the data were processed

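Per the file headers, the authors used Agilent Feature Extraction (10.5.1.1). Its deposited processed signal is an intensity after background subtraction and detrending, with low values replaced. The authors also deposited a log2 table, used as an alternative. Of 62976 spots, 4259 controls were removed and outlier spots set missing. The log2 intensity minus the array's 75th percentile was averaged over spots of a probe. A probe was kept if well above background on all arrays of 1 or more groups (20005 of 30367 probes), with all kept spots above background. That reading of the call was settled after gene counts under 3 readings had been seen, as the nearest to the number of probes in an earlier analysis of these files. The probe of highest mean stood for a gene. Names came from accessions (17998 probes), symbols (2662) or synonyms (559) of a GRCr8 gene table, or the file (9148).

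A limma 3.58.1 model (R 4.3.3) of 4 group means took in all 13 arrays (9 residual and 2.22 prior degrees of freedom), two-sided, with Benjamini-Hochberg adjustment over all genes. Errors are moderated SE. Replicates are labelled as separate samples, so p-values measure the spread between these samples. The fit was tested on simulated data. Members and lists were chosen with earlier results of these data known. The genes named are all members, per list and trauma comparison the genes called or, with none called, the gene of smallest p in each direction, and the 2 genes most correlated with each member. A gene that this rule names is not reported here.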

Additional observations from a re-analysis of the deposited data

Results flagged for a closer look

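In all, 3 genes differed in sign between the models, in that every trauma array lay on one side of the mean of its sham arrays in rotational trauma and on the other side in percussion trauma. The arithmetic difference between the rotational and percussion values was 7.58 on the log2 scale for Hpn, 1.13 for Ctrl and 0.99 for Plau. These differences were not tested, because the members were chosen on these contrasts. Slide column 2 held rotational trauma and percussion sham, so opposite signs cannot be told apart from an effect of the slide column. Hpn and Ctrl read higher on every column 2 array than on any column 1 array. Plau was below background on all 13 arrays, and Hpn was above background on only 4. Their values therefore come from readings below background and are no measure of fold. Of the 8 percussion sham groups examined, 1 per gene, 0 had an array set far apart from the other 3 by Dixon's criterion. With 4 arrays this criterion passes over wide gaps, so it does not show that the arrays were alike. For Hpn, percussion sham replicate 1 read -2.99, against -7.40, -6.32 and -6.70 on the others.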

How the results depend on the processing

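The count of genes passing the adjusted p in rotational trauma, 2 as reported, was 4 with normexp background, 0 with quantile normalization, 3 with median scaling (2 higher), 4 with the deposited table, 334 with no filter on dim probes (310 higher), 1 with probes above background on all arrays, 5 with the positive-and-significant call, 6 with rotational arrays alone and 0 with the array row as a block. In percussion trauma, 0 as reported, it was 2895 with no filter (290 higher) and 8 with the row as a block. For the difference between the models, 0 as reported, it was 3765 with no filter (3469 higher) and 10 with the positive-and-significant call. With the replicate block the rotational count was 0. The labels do not say whether replicate numbers pair the samples. Same-number correlations were 0.109, 0.265 and 0.0204 in rotational and 0.282, -0.0227 and -0.00627 in percussion. Those of unlike numbers ran from -0.226 to 0.133 in rotational and from -0.236 to 0.227 in percussion. With so few values that overlap, pairing was neither shown nor excluded. Leaving out 1 array gave 0 to 12 genes in rotational trauma, 0 to 92 in percussion trauma and 0 to 8 for the difference, the highest without rotational trauma replicate 3, percussion trauma replicate 3 and rotational trauma replicate 3. The following were added after the data were seen, as were the values of single list genes with 1 array left out. With scaling and filter repeated for each array left out, the first form run, the counts were 0 to 19, 0 to 110 and 0 to 23. With a probe called above background where at least 50% of its spots were, the difference gave 5 genes of 17577, and with over 50% it gave 0 of 17265.

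Klk8, Hpn, Ctrl and Serpini1 kept their direction in both models under every alternative that gave them a value. Many alternatives leave a given contrast unchanged, and none separates slide column from group. The members were also chosen on these contrasts, so nothing is read from the kept directions. Hpn had none with probes above background on all arrays. In rotational trauma Klk8 ranged from -1.68 to -1.05, the smaller size with normexp background. Hpn ranged from 2.07 with normexp background to 5.46, and was 2.98 with the deposited table. In percussion trauma Hpn was -0.69 with normexp background and -0.72 with the deposited table. Serpini1 was 0.15 in percussion trauma with the mean over its probes. Plat in both models, Serpine2 in rotational trauma and Klk6 in percussion trauma changed sign under some alternatives. The cause was not tested. Signal near background limits Hpn and Plau.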
